A study of Mus musculus with 24 samples.

Results

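Accessible chromatin was described at 9 genes of cell cycle entry and its inhibition (Cdk6, Ccnd1, Ccnd2, Ccnd3, Cdkn1a, Cdkn1b, Cdkn2c, Mki67 and Mycn), out of 21938 protein-coding genes of the mouse annotation (GENCODE release M 21, mm10). The genes were chosen by name for their role, and every peak or site within a gene or 30 kb of it was taken, which covers 0.915 Mb in all. ATAC-seq marks open DNA by insertion of sequencing adapters with the Tn5 transposase, and 24 libraries in 11 groups were made from cells sorted from C57BL/6 bone marrow, so that chromatin could be compared with and without Daxx, which delivers the histone variant H3.3. Daxx-WT mice were Daxx +/+ Cre +/- and Daxx-KO mice Daxx F/F Cre +/-, while DKO mice were floxed at both genes (Daxx F/F and Pu.1 F/F) and also Cre +/-. All groups therefore carried Cre. In these bulk libraries a shift in the mix of sorted cells and a change of chromatin within cells cannot be told apart.

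Long-term blood stem cells (LT-HSCs) and 2 downstream populations, the GMPs (progenitors of granulocytes and monocytes) and the CMPs (progenitors of all myeloid cells), without a time label had 2 libraries for each genotype, and by the methods of the study they came from RosaCreERT2 mice after tamoxifen, a Cre that is active in all tissues. The same Cre was used for LT-HSCs collected 3 d.p.i. (d.p.i., days post induction), with 3 libraries of Daxx-KO and 2 of Daxx-WT cells. Both of these controls were labelled Daxx +/+, but a legend of the study also names Daxx +/F among them, so a control may have carried a floxed allele. KLS cells, sorted as Lin- c-Kit+ Sca-1+, were taken 3 w.p.i. (w.p.i., weeks post induction). They comprised 2 Daxx-WT libraries, 3 of Daxx-KO and 2 of DKO cells, and carried Mx1Cre, which pI:pC induces in blood cells and also in other tissues. No group with loss of Pu.1 alone was analysed here. The labels gave no age and did not tie libraries to separate mice, so p-values measure the spread between these libraries.

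Entry into the cell cycle is driven by the D-type cyclins (Ccnd1, Ccnd2 and Ccnd3), which activate the kinases Cdk4 and Cdk6 to phosphorylate the retinoblastoma protein and release E2F factors. Cdkn2c (p18) binds and inhibits Cdk4 and Cdk6, while Cdkn1a (p21) and Cdkn1b (p27) restrain cyclin-kinase complexes more widely and are linked to stem cell quiescence. Mycn is a Myc family transcription factor that promotes growth, and Mki67 encodes the proliferation marker Ki-67. Human long-term stem cells are known for low CDK6, and the kinase is tied to their exit from quiescence.

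Daxx, the targeted gene, was checked first. The log2 difference from Daxx-WT at sites over Daxx was -1.79 in LT-HSCs at 3 d.p.i. It was -2.02 and -2.72 for KLS cells without Daxx, and for DKO cells -1.72, -2.87 and, at a last site, 0.94. Spi1, which encodes Pu.1, had a DKO site at -3.37 and 4 others between 1.19 and 1.38. Of 6 stem cell markers, 3 to 5 had a promoter peak in each list (3 in Daxx-WT and 5 in Daxx-KO LT-HSCs at 3 d.p.i., whose part in the results was not tested), and of 6 granulocyte-monocyte markers none had one in the 4 LT-HSC lists, 1 had one in each KLS list and 3 to 5 in each CMP or GMP list. The mean number of reads in a window of 600 bp was 4.21 to 16 per library. After the authors' scaling it was 4.01 to 10.8 in the LT-HSC table and 3.98 to 9.03 in the table of Daxx-KO KLS cells, whereas in the DKO table both DKO libraries (10.6 and 15) exceeded both Daxx-WT libraries (7.39 and 8.19).

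The sequences that carry the main findings are shown first. Those around peak summits span 201 bp of the plus strand of mm10 (GRCm38), and the promoters span the 250 bp before the start on the gene's strand (RefSeq, GRCm38.p6). Capitals mark GAGGAAGT (bound by Pu.1), TTTGGCGC or TTTCCCGC (E2F), CACGTG (E-box of Myc factors), TTTGAA (the CHR element of cell cycle genes), CCAAT, and TGACGTCA (cAMP response element), each read on both strands; the motifs shown do not overlap. In the first set are 2 intronic peaks of Cdk6 and a peak upstream of Mki67 that were listed in Daxx-KO but not Daxx-WT LT-HSCs at 3 d.p.i., at chr5:3497691-3497891, chr5:3512734-3512934 and chr7:135721775-135721975.
Cdk6 +156.2 kb: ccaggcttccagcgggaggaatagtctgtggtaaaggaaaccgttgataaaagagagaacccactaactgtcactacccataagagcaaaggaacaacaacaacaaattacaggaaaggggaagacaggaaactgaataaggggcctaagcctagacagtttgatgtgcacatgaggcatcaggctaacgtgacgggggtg
Cdk6 +171.4 kb: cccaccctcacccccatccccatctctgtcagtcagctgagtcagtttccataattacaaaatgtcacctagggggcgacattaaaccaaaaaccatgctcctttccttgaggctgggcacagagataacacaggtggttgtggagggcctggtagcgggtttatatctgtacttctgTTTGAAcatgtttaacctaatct
Mki67 -5.5 kb: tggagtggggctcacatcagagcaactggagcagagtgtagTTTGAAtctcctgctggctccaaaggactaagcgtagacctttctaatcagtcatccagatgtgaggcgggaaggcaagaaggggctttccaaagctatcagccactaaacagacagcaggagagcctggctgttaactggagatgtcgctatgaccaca

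Next are 2 peaks in introns of Ccnd3 with more reads in Daxx-KO KLS cells, at chr17:47531637-47531837 and chr17:47542137-47542337. The first of them was absent from the Daxx-WT and DKO lists of KLS cells and holds 2 copies of GAGGAAGT.
Ccnd3 +26.6 kb: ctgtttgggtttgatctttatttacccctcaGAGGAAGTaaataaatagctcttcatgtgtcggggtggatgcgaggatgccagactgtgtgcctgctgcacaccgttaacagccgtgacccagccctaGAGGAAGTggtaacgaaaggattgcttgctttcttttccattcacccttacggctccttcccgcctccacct
Ccnd3 +37.7 kb: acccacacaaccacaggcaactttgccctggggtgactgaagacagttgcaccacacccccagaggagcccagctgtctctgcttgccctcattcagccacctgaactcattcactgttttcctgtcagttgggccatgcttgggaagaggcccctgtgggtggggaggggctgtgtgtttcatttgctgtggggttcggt

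The last set holds peaks upstream of Ccnd1 and Ccnd2 with fewer reads in DKO cells, at chr7:144943404-144943604, chr7:144941561-144941761 and chr6:127154972-127155172, and the promoters of Mki67 (minus strand, chr7:135716380-135716629) and Mycn (minus strand, chr12:12941837-12942086).
Ccnd1 -3.5 kb: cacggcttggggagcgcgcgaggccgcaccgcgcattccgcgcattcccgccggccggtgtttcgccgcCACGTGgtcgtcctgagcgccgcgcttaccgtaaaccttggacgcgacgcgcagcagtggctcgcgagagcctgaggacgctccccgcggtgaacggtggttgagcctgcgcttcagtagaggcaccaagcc
Ccnd1 -1.6 kb: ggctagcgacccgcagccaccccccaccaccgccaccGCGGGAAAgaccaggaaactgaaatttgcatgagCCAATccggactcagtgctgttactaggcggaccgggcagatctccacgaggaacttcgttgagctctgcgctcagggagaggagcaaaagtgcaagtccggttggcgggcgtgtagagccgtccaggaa
Ccnd2 -2.7 kb: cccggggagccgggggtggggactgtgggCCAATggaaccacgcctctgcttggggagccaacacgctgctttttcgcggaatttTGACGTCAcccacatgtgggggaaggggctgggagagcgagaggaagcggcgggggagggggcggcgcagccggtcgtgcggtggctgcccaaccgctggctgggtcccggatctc
Mki67 promoter: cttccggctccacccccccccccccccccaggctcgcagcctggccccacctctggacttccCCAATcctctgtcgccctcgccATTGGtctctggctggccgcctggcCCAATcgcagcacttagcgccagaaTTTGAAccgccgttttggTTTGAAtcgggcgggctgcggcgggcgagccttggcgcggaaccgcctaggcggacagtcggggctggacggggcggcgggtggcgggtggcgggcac
Mycn promoter: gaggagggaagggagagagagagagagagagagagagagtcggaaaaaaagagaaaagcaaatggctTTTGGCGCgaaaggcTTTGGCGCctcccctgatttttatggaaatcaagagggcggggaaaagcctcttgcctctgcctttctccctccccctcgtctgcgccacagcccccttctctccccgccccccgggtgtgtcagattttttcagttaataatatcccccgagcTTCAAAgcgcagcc

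Among the 10 RefSeq promoters of the 7 genes that matched the promoter table (300 bp each, with 50 bp after the start), an E2F motif was found at Mycn alone, against 1.56% of all 32851 promoters. TTTGAA was found at Mki67 and Mycn (17.9% of all), CACGTG at Cdk6 and Cdkn2c (7.15%), and CCAAT at Ccnd3, Cdkn1b, Cdkn2c and Mki67 (37.4%). GAGGAAGT (3.2% of all promoters) and TGACGTCA (1.79%) were at none of the 10. Around summits in the list of Daxx-KO KLS cells, GAGGAAGT was found in 2 of 51 peaks at the 9 genes, both in Ccnd3, against 7.86% of all peaks. It was in 2 of 46 peaks of Daxx-WT KLS cells (7.29% of all) and 2 of 43 of DKO cells (4%). In both lists these were Ccnd3 at 3.0 kb, a peak of all 11 lists, and Cdk6 at 161.3 kb. That Cdk6 peak was absent from the Daxx-KO list of KLS cells. These are matches of letters and not measured binding.

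Peaks were listed at all 9 genes in all 11 lists. The authors deposited 1 list per group, so presence, width and strength have no spread and no test. Merging overlapping peaks of all lists gave 104 regions, and each list held between 43 peaks (DKO KLS cells) and 91 peaks (Daxx-WT GMPs) at the 9 genes. The Cdk6 and Ccnd3 windows, the longest at 249.5 and 154.6 kb, held 29 and 23 of the regions, and the plot of peak numbers by gene and list shows the peaks of all 9 genes. Cdk6 ranged from 6 peaks in DKO KLS cells to 25 in Daxx-WT GMPs, whereas Ccnd3 stayed between 10 and 20.

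**Figure D1:**
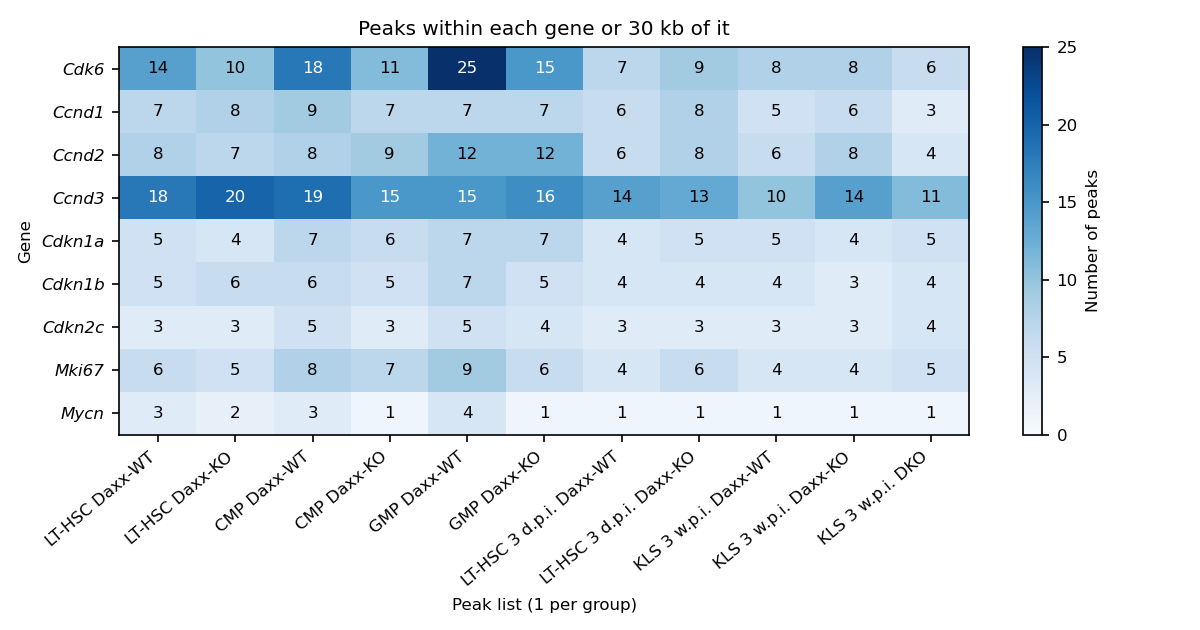
Number of peaks within each of the 9 genes or 30 kb of it (rows) in the 11 peak lists (columns, 1 list per group), with the number printed in each cell. Cdk6 has 18 peaks in Daxx-WT and 11 in Daxx-KO CMPs, and 25 in Daxx-WT and 15 in Daxx-KO GMPs.

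Promoters were the most constant part of these genes. A promoter peak (within 1000 bp of an annotated start) was listed in all 11 groups at Cdk6, Ccnd2, Cdkn1a, Cdkn1b, Cdkn2c, Mki67 and Mycn, and at the 2 downstream promoters of Ccnd3, which lie 88.7 and 90.8 kb into the gene. The Cdkn1a peak lay 3.7 kb past the gene start, at a later annotated start. No list held a peak within 1000 bp of the first start of Cdkn1a. Ccnd1 was different, since its promoter peak of 449 to 490 bp was listed in 8 groups and was missing from Daxx-WT GMPs, Daxx-WT KLS cells and DKO KLS cells. The peaks 1.6 and 3.5 kb upstream of Ccnd1 were listed in 10 and 11 groups. The first promoter of Ccnd3 had a peak in 5 groups, among them Daxx-KO but not Daxx-WT CMPs and GMPs. A second, inner promoter of Mycn at 1.6 kb had a peak in 4 groups. These were both genotypes of LT-HSCs without a time label, and Daxx-WT but not Daxx-KO CMPs and GMPs.

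Widths are in base pairs summed over the promoter region, and strengths are percentiles of the authors' signal value within the same list, which the 5 lists of LT-HSCs at 3 d.p.i. and KLS cells carry. The Cdk6 promoter spanned 3490 to 3723 bp in 9 lists, but 2157 bp in Daxx-WT and 1507 bp in DKO KLS cells, against 3701 bp in Daxx-KO KLS cells. The Ccnd2 promoter was also widest in Daxx-KO KLS cells, with 1943 bp against 1268 bp in Daxx-WT and 1402 bp in DKO cells. The strongest promoters were those of Cdkn2c, at the 78 to 96.6 percentile, and Mki67, at the 81.2 to 92.4 percentile. Those of Ccnd1 (1.26 to 8.58), Ccnd2 (4.83 to 19.2) and Cdk6 (6.1 to 27.5) ranked low in each of these lists. Cdkn1a ranked at the 45.1 to 68.4 percentile, Cdkn1b at 54.2 to 74.8 and Mycn at 26.5 to 52.2.

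Genotypes were then compared within each population by counting peaks without any overlapping peak (at least 1 bp) in the other list. In CMPs, 27 of 83 Daxx-WT peaks at the 9 genes had no Daxx-KO peak, or 32.5%, beside 28.5% of all Daxx-WT peaks, and 6 of 64 Daxx-KO peaks had no Daxx-WT peak, or 9.38% beside 6.26%. In GMPs the counts were 21 of 91 Daxx-WT peaks (23.1% beside 27.6%) and 3 of 73 Daxx-KO peaks (4.11% beside 4.55%). The shares at the 9 genes were thus near those of the whole lists, and Cdk6 alone held 10 of the 27 peaks in CMPs and 10 of the 21 in GMPs. CMP and GMP libraries were also sequenced in a further single-read run, and how far that moved their lists was not tested.

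In LT-HSCs without a time label, 4 of 65 Daxx-KO peaks had no Daxx-WT peak (6.15% beside 13.9%) and 6 of 69 Daxx-WT peaks had no Daxx-KO peak (8.7% beside 6.78%). At 3 d.p.i. the counts in LT-HSCs were 10 of 57 Daxx-KO peaks (17.5% beside 24.1%) and 1 of 49 Daxx-WT peaks (2.04% beside 8.68%). In KLS cells, 9 of 51 Daxx-KO peaks had no Daxx-WT peak (17.6% beside 31.8%) and 1 of 46 Daxx-WT peaks had no Daxx-KO peak (2.17% beside 8.06%). In DKO cells, 7 of 43 peaks had no Daxx-WT peak (16.3% beside 21.4%), and 10 of 46 Daxx-WT peaks had no DKO peak (21.7% beside 48.4%). For LT-HSCs at 3 d.p.i. and KLS cells the Daxx-KO lists came from 3 libraries and the Daxx-WT lists from 2. List length decides several of these shares: with all 5 lists cut to the 22156 strongest peaks, 0% of the Daxx-KO and 11.1% of the Daxx-WT peaks lacked a counterpart for LT-HSCs at 3 d.p.i., while the shares in DKO against Daxx-WT KLS cells were 44.2% and 4.35%.

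Some regions changed lists in several populations. The intronic peaks of Cdk6 at 156.2, 161.3 and 171.4 kb were listed in Daxx-KO but not Daxx-WT LT-HSCs at 3 d.p.i. They ranked between the 2.85 and 31.2 percentile of the 44326 Daxx-KO peaks, so the cut to 22156 peaks removed them by rank. Whether they would remain at the Daxx-WT length of 36949 peaks was not tested. In LT-HSCs without a time label the peak at 171.4 kb was in the Daxx-WT list and not in the Daxx-KO list, the opposite presence, and that at 156.2 kb was in both. In KLS cells, the Daxx-KO list added 4 intronic peaks of Ccnd3 at 18.4, 26.6, 52.1 and 62.3 kb that the Daxx-WT list lacked, and DKO cells lacked the last 3 of them. These 4 peaks ranked at the 4.92 to 39.6 percentile of the 44694 Daxx-KO peaks. The cut to 22156 peaks, the length of the DKO list, removed all of them by rank. Whether any would remain at the Daxx-WT length of 33325 peaks was not tested. The DKO list lacked the Ccnd1 peaks at -1.6 and 1.9 kb and the Ccnd2 peaks at -10.8, -2.7 and 9.3 kb that Daxx-WT cells had. Of these 5 peaks, the one at -10.8 kb of Ccnd2 alone remained in the Daxx-WT list at equal length, so the other absences could not be told apart from list length. The Ccnd2 peak at -2.7 kb and the first promoter of Ccnd3 were the 2 regions listed in Daxx-KO but not Daxx-WT cells in both CMPs and GMPs. More regions had the opposite presence in both populations. They were Cdk6 at 153.1 and 175.3 kb, Cdkn1b at 2.6 kb and the inner promoter of Mycn at 1.6 kb.

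**Figure D2:**
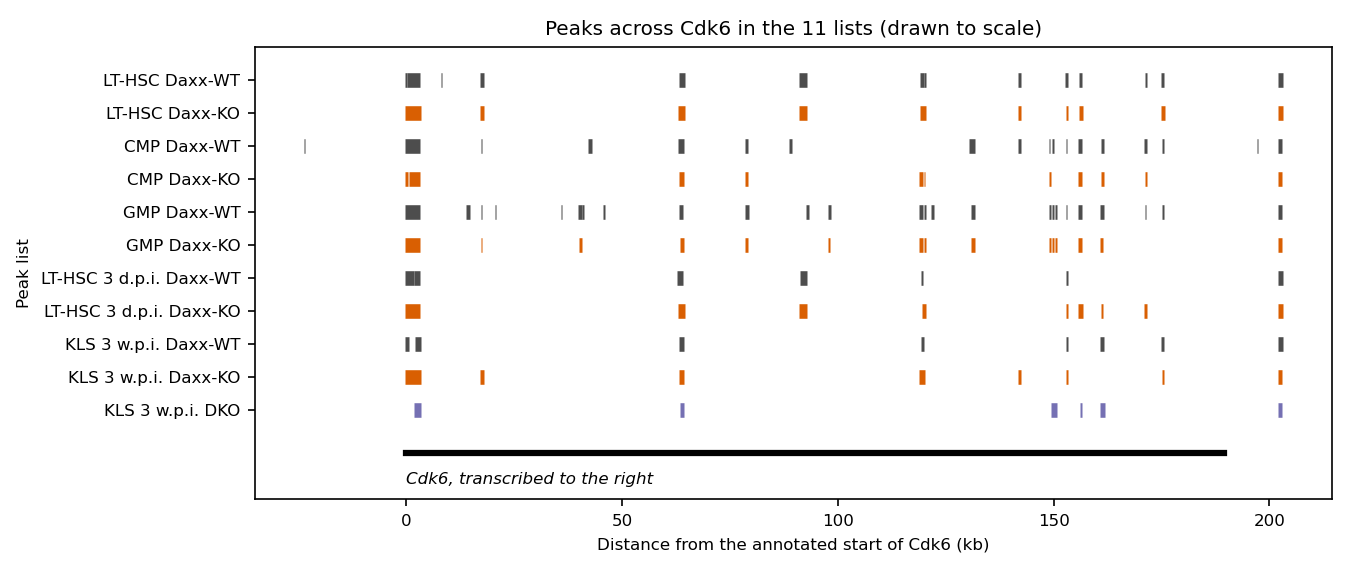
Peaks across Cdk6 in the 11 lists, drawn to scale; the horizontal axis is the distance from the annotated start in kb, each row is a list (grey Daxx-WT, orange Daxx-KO, purple DKO), and the black bar is the gene. The promoter, the intronic peak at 63.8 kb and the peak at 202.5 kb, which covers the promoter of Fam133b, are in all 11 lists, while the peaks between them differ.

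The authors' 3 tables list sites that differed between genotypes when reads in sliding windows of 600 bp were compared, so all sites were selected for a difference in these same libraries and a region not listed has no value. Values are scaled reads per library. Differences are on the scale of log2(scaled reads + 1), KO or DKO minus Daxx-WT, with standard errors (SE) and with p-values by limma adjusted over all windows that the authors tested. LT-HSCs at 3 d.p.i. had 23 sites at 7 of the 9 genes, beside 46.6% of all protein-coding genes with a site within 30 kb. Daxx-KO KLS cells had 18 sites at 8 genes (59.1% of all genes), and DKO cells had 52 sites at 8 genes (77.3%). Per Mb this was 25.1, 19.7 and 56.8 sites, against 8.24, 12.4 and 35.3 over the windows of all genes. Cdkn2c had a single site in the 3 tables together, the fewest of the 9 genes.

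Most sites at the 9 genes were higher in Daxx-KO than Daxx-WT LT-HSCs at 3 d.p.i., and those of Cdk6 made up 10 of the 15 higher ones. This direction holds for the 30 kb window: the median over all their sites was 0.80, and -0.82 when sites within 100 kb were taken. Cdk6, the kinase partner of the D-type cyclins, had 10 sites and all 10 were higher in Daxx-KO, with log2 differences from 0.80 to 1.59 and a median of 1.10. Among all sites of the table, 29.1% were higher, and the median of all sites was -1.05. Only 2 of the 21938 genes had 10 or more higher sites, Cdk6 among them, though its window is long and held 40.1 sites per Mb. In 23 of the 23 sites the libraries of the genotypes did not overlap, as at 99.5% of all sites. By limma, 0 of the 23 sites passed an adjusted p of 0.05, as 0% of all 11927 sites did, and 22 of the 23 had an unadjusted p under 0.05 (11454 of all).

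The Cdk6 site with the most reads lay 156.1 kb into the gene, in an intron at chr5:3496851-3498300, over the first sequence shown. It had 289, 261 and 246 scaled reads in Daxx-KO against 151 and 127 in Daxx-WT libraries. Each Daxx-KO library lay above both Daxx-WT libraries, with a difference of 0.93 (SE 0.23, adjusted p = 0.306). At 171.4 kb, over the second sequence, the libraries had 126, 129 and 148 against 77.8 and 62.8 scaled reads (0.93, SE 0.23, adjusted p = 0.313). Both sites had a peak in the Daxx-KO list and none in the Daxx-WT list.

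At 64.2 kb, inside the intronic peak found in all 11 lists, the Cdk6 site had 72.5, 81.1 and 90.8 scaled reads in Daxx-KO against 42.8 and 49.7 in Daxx-WT libraries (0.80, SE 0.23, adjusted p = 0.407). The difference was largest at 30.0 kb, outside any peak, with 92.7, 35.3 and 47.5 against 22.5 and 13.1 scaled reads (1.59, SE 0.42, adjusted p = 0.341). There the Daxx-KO libraries spread most, and the first of them stood apart. The other 6 sites were intronic or, at 193.3 kb, downstream of the gene, and had differences between 0.98 and 1.22. Scaling each library to its mean reads per window left all 10 sites higher, with a median of 1.43. That scaling raised all sites of the table by 0.33 at the median, so the kept direction is no separate support.

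Mki67 had a promoter site 0.7 kb past the gene start at chr7:135715301-135716000, within the peak present in all lists. It had 195, 211 and 181 scaled reads in Daxx-KO against 127 and 127 in Daxx-WT libraries. The difference was 0.61 (SE 0.22, adjusted p = 0.87), and the groups did not overlap. At -5.5 kb, over the third sequence, the libraries had 98.2, 145 and 110 against 60.9 and 54.4 scaled reads (1.00, SE 0.25, adjusted p = 0.318). A site at 56.6 kb, inside Ptpre, went the other way, with 243, 314 and 209 in Daxx-KO against 341 and 354 scaled reads in Daxx-WT libraries (-0.46, SE 0.25, adjusted p = 1). The promoter site of Mki67 thus had more reads in all 3 Daxx-KO libraries. Its peak had a signal value of 11.17 (87.7 percentile) in the Daxx-KO and 11.96 (92.4) in the Daxx-WT list, which were not compared as levels.

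The 3 sites of Ccnd2, the D-type cyclin that responds to growth factors, were all lower in Daxx-KO LT-HSCs and lay in its introns and exons outside any peak. The largest, at 18.9 kb, had 17.4, 15.3 and 20.1 scaled reads in Daxx-KO against 60.9 and 46.9 in Daxx-WT libraries (-1.56, SE 0.24, adjusted p = 0.301). The other 2 were at -0.97 and -0.82. Ccnd1 had 1 site, at 10.8 kb, past the gene end and inside LTO1, with 11.9, 9.54 and 15.8 against 29.3 and 27.2 scaled reads (-1.15, SE 0.26, adjusted p = 0.301).

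Ccnd3 had 2 higher and 2 lower sites in the same cells, none within a peak. The lower site at 119.3 kb had 13.8, 1.91 and 10.6 scaled reads in Daxx-KO against 31.6 and 27.2 in Daxx-WT libraries (-1.94, SE 0.62, adjusted p = 0.591), and its low second Daxx-KO library gave the widest error of the 23 sites. Cdkn1a had a site at 23.4 kb, in the neighbouring gene Rab44, with 61.5, 60.1 and 63.3 against 30.4 and 35.6 scaled reads (0.88, SE 0.22, adjusted p = 0.31). Cdkn1b had 1 site at -16.1 kb with 14.7, 12.4 and 22.2 against 31.6 and 38.5 scaled reads (-1.08, SE 0.29, adjusted p = 0.349). No promoter of an inhibitor gene was listed in LT-HSCs at 3 d.p.i.

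**Figure D3:**
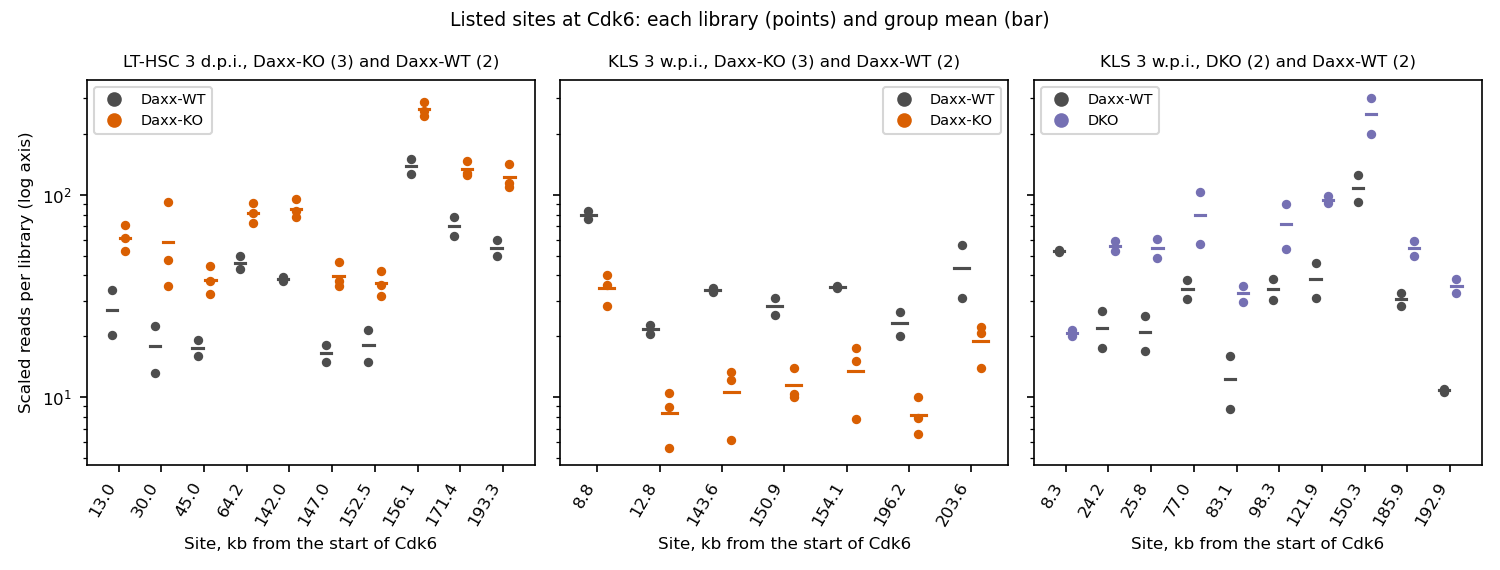
Scaled reads per library (log axis) at every listed site of Cdk6, by distance from the gene start in kb, in the 3 tables; points are libraries and bars are group means. All 10 sites are higher in Daxx-KO LT-HSCs at 3 d.p.i., all 7 are lower in Daxx-KO KLS cells, and 9 of 10 are higher in DKO KLS cells.

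Daxx-KO libraries of KLS cells had fewer reads at 14 of the 18 sites, beside 19.1% of all sites that were higher, and the 4 higher sites were the 3 of Ccnd3 and 1 in Mycn. All 3 sites within a peak belonged to Ccnd3. The groups did not overlap at 17 of the 18 sites (99.6% of all sites). By limma, 0 of the 18 sites passed, as 0% of all 17311 sites did, with 17 of the 18 at an unadjusted p under 0.05 (16749 of all). The median over the 18 sites was -1.22, and -1.27 over all sites.

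Ccnd3, the D-type cyclin used widely in blood cells, had its 3 sites in introns. At 26.5 kb, over the sequence with the 2 GAGGAAGT motifs, there were 175, 225 and 145 scaled reads in Daxx-KO against 75.7 and 88.3 in Daxx-WT cells (1.12, SE 0.31, adjusted p = 0.296). At 36.9 kb they had 144, 232 and 164 against 75.7 and 87.1 scaled reads (1.11, SE 0.32, adjusted p = 0.306), and at 16.3 kb 130, 144 and 157 against 93.1 and 84.8 (0.69, SE 0.28, adjusted p = 0.994). All Daxx-KO libraries lay above both Daxx-WT libraries at the 3 sites, which lie in chr17:47521001-47521700, chr17:47530851-47532250 and chr17:47541451-47542550. With each library scaled to its mean reads per window, which raised all sites of the table by 0.47 at the median, the differences were 1.17, 1.61 and 1.60.

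Ranks within a list depend on its length, so no order of strength between lists was read from them. The Ccnd3 peak at 37.7 kb had a signal value of 4.42 (22.2 percentile) in Daxx-WT, 6.76 (57.2) in Daxx-KO and 6.09 (68.9) in DKO KLS cells. The Ccnd3 peak at 16.8 kb, under the site at 16.3 kb, had 8.72 (87.6 percentile), 9.475 (85.0) and 6.82 (78.4) in the same order of groups. The Ccnd3 peak at 26.6 kb was listed in Daxx-KO KLS cells alone of the 3, at 5.68 (39.6 percentile).

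Cdk6 had 7 sites in Daxx-KO KLS cells, all lower and none within a peak, with a median of -1.32. The largest difference was in an intron at 143.6 kb, with 13.4, 6.12 and 12.2 scaled reads in Daxx-KO against 34.7 and 33.2 in Daxx-WT libraries (-1.66, SE 0.37, adjusted p = 0.284). These sites lay between peaks and had few reads, at most 40.1 in a Daxx-KO library. Most sites of the table were lower too, and 170 genes, Cdk6 among them, had 7 or more lower sites.

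Mycn, the growth-promoting Myc factor, had a site at 2.1 kb, beside its inner promoter, with 60.1, 55.1 and 48.9 scaled reads in Daxx-KO against 25.5 and 35.5 in Daxx-WT libraries (0.83, SE 0.30, adjusted p = 0.599). Its other site, at -1.7 kb, had 14.5, 7 and 9.41 against 29.2 and 24.1 scaled reads (-1.34, SE 0.35, adjusted p = 0.284). The 2 sites, on either side of the gene start, thus differed in direction.

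The other genes with a site in Daxx-KO KLS cells had 1 or 2 lower ones each, all outside peaks. Ccnd1 had 13.4, 6.12 and 7.53 against 28.3 and 26.4 scaled reads at 20.1 kb (-1.57, SE 0.36, adjusted p = 0.284). Ccnd2 had 14.5, 8.75 and 16.9 against 33.8 and 28.7 at 7.6 kb (-1.20, SE 0.35, adjusted p = 0.302), next to a second site at -0.94. The first of these overlaps the LT-HSC site with -0.97.

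Among the inhibitors, Cdkn2c had 6.68, 7 and 10.4 in Daxx-KO against 21 and 27.5 scaled reads in Daxx-WT libraries at -3.6 kb (-1.50, SE 0.32, adjusted p = 0.284). Cdkn1b had 18.9, 10.5 and 10.4 against 24.6 and 42.4 at 28.2 kb (-1.28, SE 0.38, adjusted p = 0.324). Mki67 was the exception in overlap, with 36.7, 37.6 and 26.3 against 34.7 and 91.7 scaled reads at 49.8 kb (-0.75, SE 0.43, adjusted p = 1), where only the second Daxx-WT library stood above. Cdkn1a had no listed site in this table.

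In DKO cells, both libraries had fewer reads than Daxx-WT around the promoters of Ccnd1, Ccnd2 and Mycn, and most sites at Cdk6, Ccnd3, Cdkn1a, Cdkn1b and Mki67 had more. The 5 lower sites of Ccnd1, Ccnd2 and Mycn that passed the test lay upstream or in the gene body. Of these, the Ccnd2 site at -0.9 kb lay within 1000 bp of the gene start and overlapped the promoter peak. No other site in a promoter of these 3 genes passed with the authors' scaling. Of the 52 sites, 35 were higher, beside 72.1% of all sites of the table. By limma, 29 passed as higher (67.3% of all sites) and 7 as lower (14.9%), 36 in all (82.2%). The groups did not overlap at any of the 52 sites, as at 100% of all sites to 3 digits. The scale decides this split: DKO libraries kept more reads per window after the authors' scaling, and with each library scaled to its mean reads per window all sites of the table moved by -0.67 at the median. Then 1 site, at -27.3 kb of Cdkn1a, passed as higher (6.53% of all sites) and 17 as lower (27.2%). Sites that were already lower moved further down with this shift, so their passing under it is no separate support. Limma gave nearly the same error, 0.36, at each of these sites, and without either DKO library 0 of the 52 sites passed, and without the first Daxx-WT library 15 did.

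Ccnd1 had 4 neighbouring sites from -2.6 to 2.2 kb, all lower. The upstream site at chr7:144940951-144944100, over both Ccnd1 sequences shown, had 194 and 245 scaled reads in DKO and 525 and 460 in Daxx-WT libraries (-1.17, SE 0.36, adjusted p = 0.0144). At the start itself the libraries had 74.2 and 67.5 against 172 and 115 (-0.98, adjusted p = 0.0642), and at 1.0 kb 32.9 and 31.9 against 63.9 and 61.4 scaled reads (-0.93, adjusted p = 0.0938). The site at 2.2 kb, over an exon, had 77.4 and 62.8 against 137 and 118 (-0.86, adjusted p = 0.159). With scaling to mean reads per window all 4 passed, between -1.86 and -1.55. At the gene end, at 10.3 kb and outside peaks, a site was higher with 33.9 and 53.4 against 12.4 and 17.6 scaled reads (1.47, adjusted p = 0.00106).

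Ccnd2 showed the same picture over a longer stretch, with 6 lower sites from -10.8 to 4.2 kb. Just upstream of the start, at -0.9 kb, the libraries had 71.1 and 59 scaled reads in DKO and 162 and 135 in Daxx-WT cells (-1.18, SE 0.36, adjusted p = 0.0136). At -10.8 kb they had 66.8 and 52.5 against 116 and 143 (-1.11, adjusted p = 0.0239), where the DKO list had no peak. In the promoter, at 1.1 kb, they had 178 and 145 against 292 and 290 scaled reads (-0.85, adjusted p = 0.169). At these 3 sites the groups were farther apart than the libraries within either, but sites were listed for such a difference in these same libraries.

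At 4.2 kb, a site named after its values were seen, over an exon and the promoter of 9330179D12Rik, the libraries had 59.4 and 50.6 against 117 and 112 scaled reads (-1.05, adjusted p = 0.0384). The remaining lower Ccnd2 sites did not pass. At -2.9 kb, over the sequence with TGACGTCA, the libraries had 93.3 and 81.5 against 185 and 128 scaled reads (-0.82, adjusted p = 0.213), and at 2.5 kb 87 and 76.8 against 134 and 133 (-0.70, adjusted p = 0.458). Under scaling to mean reads per window all 6 lower sites passed, between -1.86 and -1.39. Inside the gene, at 11.9 kb, a site outside peaks was higher with 38.2 and 50.6 against 11.5 and 20.8 scaled reads (1.44, adjusted p = 0.00132).

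Mycn had 3 lower sites over its promoter and body. In the body at 3.4 kb the libraries had 54.1 and 60.9 scaled reads in DKO and 149 and 115 in Daxx-WT cells (-1.18, SE 0.36, adjusted p = 0.0135). In the promoter they had 101 and 75 against 185 and 148 at 0.4 kb (-0.92, adjusted p = 0.1), and 144 and 107 against 234 and 207 at -0.8 kb (-0.82, adjusted p = 0.203). With scaling to mean reads per window all 3 passed, between -1.86 and -1.51. The Mycn promoter peak remained in the DKO list, at 1319 bp.

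**Figure D4:**
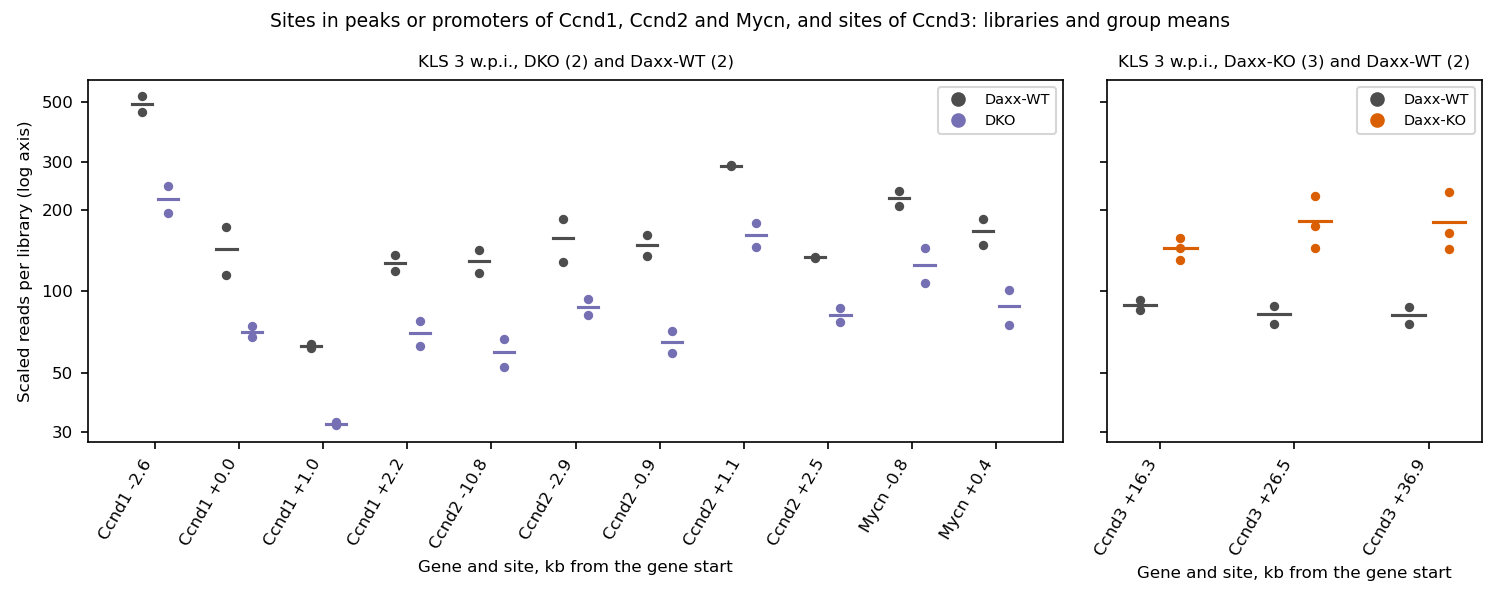
Scaled reads per library (log axis) at sites in a peak or promoter of Ccnd1, Ccnd2 and Mycn in DKO and Daxx-WT KLS cells (left), and at the Ccnd3 sites in Daxx-KO and Daxx-WT KLS cells (right); points are libraries and bars are group means. Both DKO libraries lie below both Daxx-WT libraries at all 11 sites on the left, and all Daxx-KO libraries lie above at the 3 sites on the right.

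Ccnd3 had 10 higher sites and 1 lower site in DKO cells. Within the peak of the second Ccnd3 sequence, at 37.4 kb, the libraries had 282 and 243 scaled reads in DKO and 121 and 140 in Daxx-WT cells (1.00, SE 0.36, adjusted p = 0.0557). In the table of Daxx-KO cells, which shares these Daxx-WT libraries, this region had 1.11. No DKO site was listed at the region with GAGGAAGT. Upstream, at -10.2 kb and outside peaks, they had 81.7 and 105 against 30.2 and 27.4 scaled reads (1.65, adjusted p = 0.000186), and at 91.8 kb in a downstream promoter 79.5 and 66.5 against 39.1 and 43.9 (0.80, adjusted p = 0.24).

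Cdk6 had 9 higher sites and 1 lower site in DKO cells, with a median of 1.25, or 0.56 under scaling to mean reads per window, beside 1.29 and 0.62 for all sites of the table. The site within a peak, at 150.3 kb, had 303 and 200 scaled reads in DKO and 92.3 and 125 in Daxx-WT libraries (1.19, SE 0.36, adjusted p = 0.012). This peak was in the DKO list at the 50.3 percentile and in neither other KLS list, while the Daxx-WT CMP list and both GMP lists held it. The largest difference was downstream at 192.9 kb, with 32.9 and 38.4 against 10.7 and 11 scaled reads (1.63, adjusted p = 0.000233). The lower site, at 8.3 kb and named after its values were seen, had 20.15 and 21.55 against 52.36 and 53.74 scaled reads. Its difference was -1.31 (adjusted p = 0.00443), and it also passed under scaling to mean reads per window (-1.98). It overlaps a lower site of Daxx-KO KLS cells at 8.8 kb (-1.19), from a table that shares these Daxx-WT libraries.

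Cdkn1a (p21) had 8 sites, of which 6 were higher in DKO cells. The site at its later promoter, at 3.8 kb and over a peak of all lists, had 220 and 175 scaled reads in DKO and 123 and 133 in Daxx-WT libraries (0.61, SE 0.36, adjusted p = 0.778). Under scaling to mean reads per window the difference was -0.08. At the promoter of Rab44, under a peak of the DKO list, 2 sites had more reads in DKO cells, with 99.7 and 90.9 against 26.6 and 62.5 at 22.8 kb (1.20, adjusted p = 0.0112) and 80.6 and 65.6 against 19.5 and 37.3 at 23.7 kb (1.39, adjusted p = 0.00202). The farthest site upstream, at -27.3 kb, had 30.8 and 38.4 against 0 and 11 scaled reads (3.35, adjusted p = 1.99e-16), a difference that rests on a Daxx-WT library without reads and on the added 1. The site at -9.1 kb, in a peak of all lists, had 78.5 and 58.1 against 99.4 and 115 scaled reads (-0.66, adjusted p = 0.599). The other lower site, at -14.6 kb and named after its values were seen, had 15.9 and 39.4 against 66.6 and 62.5 scaled reads. Its difference was -1.33 (adjusted p = 0.00374), and it also passed under scaling to mean reads per window (-2.01).

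Cdkn1b (p27) had 2 higher sites in DKO cells, both far from its promoter. At -16.8 kb the libraries had 27.6 and 41.2 against 7.99 and 12.1 scaled reads (1.68, SE 0.36, adjusted p = 0.000142). Mki67 had 4 higher sites, none in its promoter, with 280 and 289 against 93.2 and 175 scaled reads at 50.2 kb inside Ptpre (1.15, adjusted p = 0.0176). In a Mki67 exon at 12.2 kb the libraries had 37.1 and 39.4 against 4.44 and 18.7 scaled reads (1.92, adjusted p = 1.02e-05). Cdkn2c had no DKO site. None of the higher sites of Cdkn1b and Mki67 passed under scaling to mean reads per window.

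**Figure D5:**
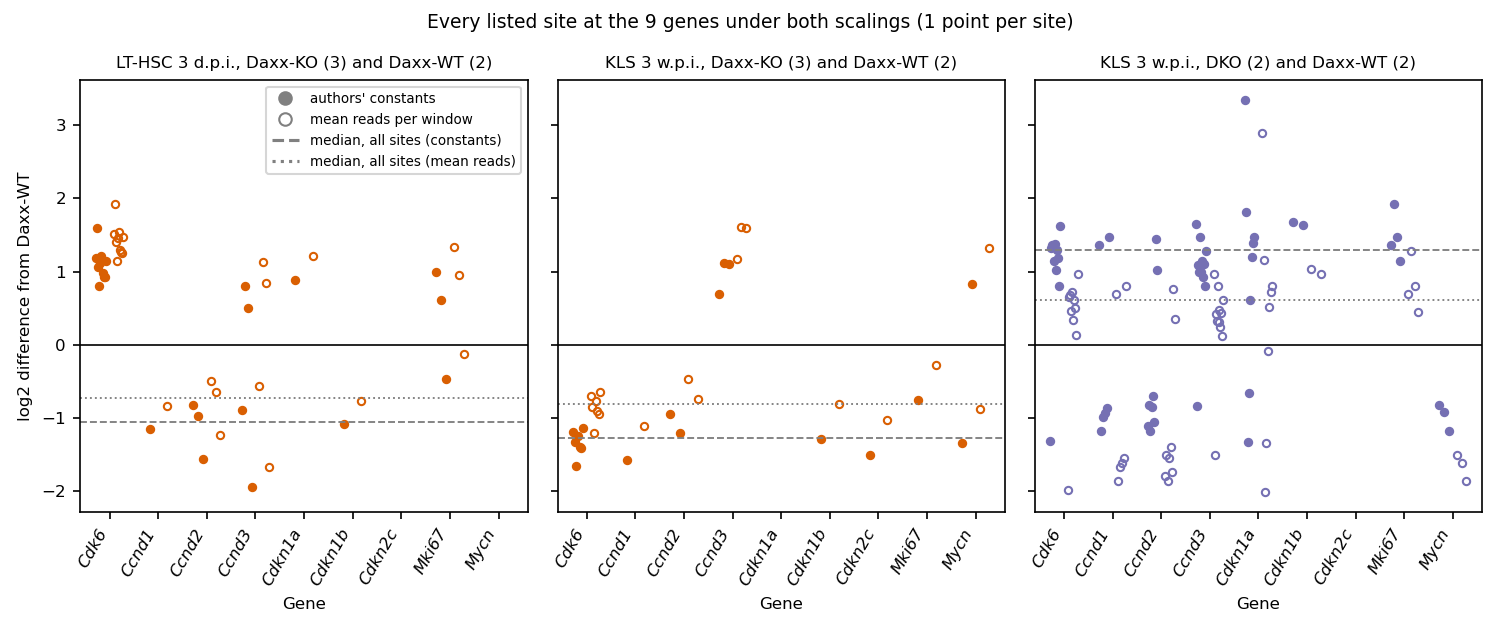
log2 difference from Daxx-WT at every listed site of the 9 genes in the 3 tables, with the authors' constants (filled) and with libraries scaled to mean reads per window (open); dashed and dotted grey lines are the medians of all sites of the table under each scaling. The directions at Cdk6 in LT-HSCs and around the promoters of Ccnd1, Ccnd2 and Mycn in DKO cells are the same under both. The rescaling moved all sites of these 2 tables by 0.33 and -0.67 at the median, the same way as these differences. The shared direction is therefore no separate support.

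Other genes of the cell cycle were counted from a list of 37. Of these, 21 had a site in LT-HSCs at 3 d.p.i., with 19 higher and 23 lower sites and a median of -0.85, beside 46.6% of all genes with a site and 29.1% of all sites higher. Daxx-KO KLS cells had sites at 32 genes, 13 higher and 49 lower (median -1.29), beside 59.1% of all genes and 19.1% of all sites, and none of these sites passed in either table. DKO cells had sites at 34 genes, 126 higher and 34 lower (median 1.30), with 115 and 15 passing. Over all genes, 77.3% had a site in this table, 72.1% of sites were higher, and 67.3% and 14.9% passed as higher and lower.

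The sites of this list with the largest differences mostly had few reads. In LT-HSCs at 3 d.p.i. they were near E2f1 (9.18, 5.73 and 10.6 against 36.1 and 26.3 scaled reads, -1.78), Cdkn1c (-1.69) and Aurka (-1.60). In Daxx-KO KLS cells they were in the mitotic kinase gene Aurka (11.1, 3.5 and 3.76 against 21.9 and 35.5 scaled reads, -2.18) and near Rbl2 (-1.81) and Rb1 (-1.79), which encode pocket proteins that hold E2F factors in check. In DKO cells they were near Ccnb1 (29.7 and 38.4 against 1.77 and 7.68 scaled reads, 2.83), in Mdm2 (2.41) and near Gfi1 (2.26), a transcriptional repressor that restrains stem cell proliferation, where the libraries had 115 and 121 against 9.76 and 55.9 scaled reads.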

How the data were processed

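ATAC-seq libraries were grouped by genotype, population and time as labelled. Per the labels, the submitters' processing notes name CASAVA 1.8.4, cutadapt 1.13, STAR 2.5.3, bedtools and mm10. The peak caller was not given in the sources used here. The 5 lists of LT-HSCs at 3 d.p.i. and KLS cells carry a signal value per peak that the authors deposited. It was used here as a percentile within a list and to cut lists to equal length. For a few peaks the value itself is printed, and levels were not compared between lists. Repeated intervals counted once. Per the file headers, diffReps 1.55.6 divided reads in windows of 600 bp (step 50 bp) by a constant per library, and windows with p below 0.0001 were merged. The authors' fold changes, group means and p-values in these tables were not used. Values times the constant were whole within 0.15 for 100% of values below 20 reads, and intervals for counting error were not computed.

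Every listed site of a table was fitted with limma 3.58.1 (R 4.3.3) on log2(value + 1), with Benjamini-Hochberg adjustment over all windows tested (413247, 407030 and 446463). The sites were selected on the same libraries, and the p-values are not independent of that choice. The fit was checked on simulated data. Peaks overlapped by at least 1 bp. A promoter lay within 1000 bp of the start of a transcript tagged basic in GENCODE M 21. Values per library were given for sites in a peak or a member promoter and for each gene's largest difference per table. A few more sites were named after their values were seen, as stated there. Of the 3 largest sites per table from the list of 37 genes, some are given by their difference alone. Members and lists were chosen with earlier results of these data known. Python 3.11.15, pandas 2.3.3, SciPy 1.17.1, pysam 0.24.0 and matplotlib 3.10.9 were used. Alternatives were other pseudocounts, scaling, adjustment, filters, windows and overlaps, a replicate block, and leaving out each library.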

Additional observations from a re-analysis of the deposited data

Results flagged for a closer look

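The Cdk6 sites had opposite directions in the 2 comparisons of Daxx-KO with Daxx-WT cells. Their median log2 difference was 1.10 in LT-HSCs at 3 d.p.i., where all 10 sites were higher, and -1.32 in KLS cells at 3 w.p.i., where all 7 were lower. The difference between the comparisons was not tested. The sites were selected separately in each table, and the populations also differ in time point, Cre line and inducing agent, which cannot be told apart. Scaling to mean reads per window gave 1.43 and -0.85.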

How the results depend on the processing

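No site at the 9 genes passed limma in LT-HSCs at 3 d.p.i. or in Daxx-KO KLS cells, but 22 and 17 did when p-values were adjusted over all listed sites of the table in place of all windows. In Daxx-KO KLS cells, 3 passed with a pseudocount of 5. In DKO cells 36 passed, 18 with scaling to mean reads per window, 23 with a window of 10 kb and 103 with 100 kb. Leaving out each library in turn gave 0 in the LT-HSC and Daxx-KO KLS tables and 0 to 29 in the DKO table: 0 without either DKO library and 15 without the first Daxx-WT library.

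The median over Cdk6 sites was 0.98 to 1.18 in LT-HSCs at 3 d.p.i., -1.38 to -1.20 in Daxx-KO and 1.05 to 1.31 in DKO KLS cells on omitting single libraries. With mean reads per window it was 1.43, -0.85 and 0.56, and with a pseudocount of 5 it was -1.10 in Daxx-KO and 1.15 in DKO cells. The median over all sites at the 9 genes became 1.14, -0.75 and 0.42 with mean reads per window, -1.02 with a pseudocount of 5 in Daxx-KO KLS cells, and 1.27 with a window of 100 kb in DKO cells, where omitting single libraries gave 0.89 to 1.07. In LT-HSCs at 3 d.p.i. it reversed from 0.80 to -0.82 with a window of 100 kb, which adds sites farther from the genes. The Cdkn1a promoter site of DKO cells reversed to -0.08 with mean reads per window. Over the sites named in the text, 411 values under an alternative kept direction and call, 49 gained and 50 lost the call, and 1 reversed. The cause of these changes was not tested.

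With the 5 lists cut to 22156 peaks by signal, the share of peaks without a counterpart was 0% for Daxx-KO and 11.1% for Daxx-WT LT-HSCs at 3 d.p.i., 17.4% for Daxx-WT against Daxx-KO KLS cells, 44.2% for DKO and 4.35% for Daxx-WT against DKO. A window of 10 kb gave 0% for Daxx-WT LT-HSCs at 3 d.p.i.

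The replicate block could be fitted for the KLS tables alone, whose headers number the libraries: 1 site passed in Daxx-KO cells and 37 in DKO cells. Deviations of same-numbered libraries from their group means had correlations of -0.00308 to 0.0517 over the listed sites. These sites were selected for a difference between the groups, so whether same-numbered libraries share a preparation cannot be told from this. The planned edgeR fit on recovered reads was not run. Depth, 4.21 to 16 reads per window, limits what could be listed.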
